A study of Mus musculus with 2 samples.

Results

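The Hox genes of mouse soft-tissue sarcoma cells were examined in 2 RNA-seq libraries, 1 of cells transduced with a short hairpin RNA against the circular RNA circCsnk1g3 (shcircCsnk1g3) and 1 of cells given the control hairpin (shCTR). The members were chosen by name alone, as every row of the count table whose symbol is Hox, a cluster letter from a to d and a number, which gave 39 of 25509 genes. The cells started as mesenchymal stem cells of C57BL/6 mice, taken from long bones and sorted as CD45-CD31-Ter119-Sca1+PDGFRa+. Both libraries carry the same background, loss of p53 (p53-/-) and overexpression of Ccne1 (Ccne1+). The cells had grown as subcutaneous tumors, were then seeded in the lungs of further mice, and were taken back from lung foci before the hairpin was added. With 1 library per condition there is no replicate check, no p-value was computed, and every interval given for a ratio is the exact 95% interval from the counts, which covers counting error only. The hairpin, the culture and the library cannot be told apart.

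Hox genes encode homeodomain transcription factors that tell cells where along the body axis and the limb they lie. In mammals they sit in 4 clusters, HoxA to HoxD, and genes at the same place in different clusters form paralog groups numbered 1 to 13. Along each cluster, groups with low numbers are used toward the head and those with high numbers toward the tail and the tip of the limb. In the limb, groups 9 and 10 are known for the upper segment, group 11 for the middle segment and group 13 for the hand and foot. Fibroblasts and mesenchymal stem cells of adults are known to keep such a positional Hox pattern in culture. Proteins of the TALE family (Pbx, Meis and Pknox) bind DNA together with Hox proteins, Polycomb complexes keep Hox genes silent, and MLL complexes keep them active.

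In both libraries the Hox level dropped steeply between groups 10 and 11, with low counts again in part of group 13. The promoters on either side of that break are shown because they lie at the border between expressed genes and genes with no counts. They are the 250 bases before the RefSeq start site (GRCm38.p6), 5′ to 3′ on the gene's own strand, with every CG dinucleotide in capitals. Hoxa10 (chr6:52240855-52241104) and Hoxa11 (chr6:52245811-52246060) lie on the minus strand, and Hoxd10 (chr2:74691641-74691890) and Hoxd11 (chr2:74679308-74679557) on the plus strand.
Hoxa10: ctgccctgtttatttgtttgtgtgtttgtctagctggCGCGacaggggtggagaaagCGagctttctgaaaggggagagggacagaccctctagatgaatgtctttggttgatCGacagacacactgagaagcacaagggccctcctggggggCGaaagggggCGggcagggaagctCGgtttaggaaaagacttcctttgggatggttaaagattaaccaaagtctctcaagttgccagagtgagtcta
Hoxa11: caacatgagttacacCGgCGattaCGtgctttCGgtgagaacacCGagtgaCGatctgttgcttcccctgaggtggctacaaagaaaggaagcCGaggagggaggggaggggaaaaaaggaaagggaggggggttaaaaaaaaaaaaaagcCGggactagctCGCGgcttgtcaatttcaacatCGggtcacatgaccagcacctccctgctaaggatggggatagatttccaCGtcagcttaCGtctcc
Hoxd10: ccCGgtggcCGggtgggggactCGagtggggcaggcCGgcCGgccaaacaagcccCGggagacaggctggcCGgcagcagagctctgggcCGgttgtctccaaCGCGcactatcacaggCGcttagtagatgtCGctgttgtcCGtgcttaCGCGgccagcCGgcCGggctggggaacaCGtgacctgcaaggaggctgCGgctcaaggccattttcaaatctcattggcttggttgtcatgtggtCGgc
Hoxd11: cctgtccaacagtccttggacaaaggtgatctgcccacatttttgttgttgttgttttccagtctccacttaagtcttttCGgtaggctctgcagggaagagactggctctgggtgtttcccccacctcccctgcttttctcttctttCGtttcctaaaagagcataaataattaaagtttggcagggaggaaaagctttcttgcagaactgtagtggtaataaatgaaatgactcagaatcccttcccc

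The CG count did not follow which side of the break a gene lay on in HoxA and HoxD. The promoters of Hoxc10 and Hoxc11 were not analysed here. The silent Hoxa11 had 13 CG dinucleotides against 7 in Hoxa10, whereas the silent Hoxd11 had 2 against 20 in Hoxd10. A RefSeq promoter was matched for 22 of the 39 Hox genes, with a median of 12 CG dinucleotides (range 2 to 35) against a median of 6 over 32841 promoter windows of the same length. Of 3 motifs searched on both strands, the CCAAT box was in 13 of the 22 (59.1%, against 33.9% of all windows). TATAA was in 4 (18.2%, against 22.8%), and TGATTNAT, the letters of a composite site of Pbx and Hox proteins, was in 1 (4.55%, against 2.83%), that of Hoxa2. None of the 3 motifs contains another on either strand, and a match describes the letters only. Median CG number was 12 in the 15 promoters of genes that passed the count filter described below and 10 in the 7 that did not. Among the 15, some RefSeq starts lie far from the 5′ end of the GENCODE gene model. The distance was 15461 bases in Hoxc4, 10049 in Hoxd4, 3719 in Hoxa9 and 3281 in Hoxa7.

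The libraries held 38792143 (shcircCsnk1g3) and 42709996 (shCTR) counts, so that the floor of 3 counts used here was 0.0765 and 0.0710 CPM (counts scaled by library size). Linear Csnk1g3, the host gene, had 2159 counts in shcircCsnk1g3 and 2411 in shCTR, a log2 ratio of -0.05 (interval -0.14 to 0.03), and gene counts do not separate the circular RNA, so the knockdown itself is not measured here. The engineered genes Ccne1 (893 and 963 counts) and Trp53 (3841 and 4334 counts) had reads in both libraries, and gene counts do not show which part of either gene the reads cover. Of 12 mesenchymal markers 11 passed the filter, among them Vim, Col1a2 and Pdgfra, whereas Thy1 had 0 and 1 counts. The leukocyte markers summed to 3.44 CPM in shcircCsnk1g3 and 6.27 CPM in shCTR, with 8 of 11 at or under 3 counts in both libraries, Ptprc at 1 and 0, and the rest carried mainly by Cd68 (87 and 155 counts) and Laptm5 (45 and 102 counts). The endothelial markers summed to 0.485 and 0.781 CPM. The lung epithelial markers summed to 0.969 and 0.899 CPM, with 7 of 11, Sftpc and Nkx2-1 included, at 0 in both. Red cell markers summed to 16.7 and 19.1 CPM, with Hba-a1 at 423 and 604 counts and the beta globins Hbb-bs and Hbb-bt at 0. The part of these other-cell markers in the Hox values was not tested. Both libraries are of bulk cells, in which fewer cells with a transcript and less transcript per cell cannot be told apart.

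Of the 39 Hox genes, 29 reached 10 counts in either library and are the genes whose ratio is given. A further 4 lay below that filter with some counts, and 6 had 0 counts in both libraries. The 39 genes together had 13233 counts in shcircCsnk1g3 and 13135 in shCTR. Levels are compared between genes as CPM per kilobase of merged exons (CPM per kb), and on that scale the Hox genes summed to 141.7 in shcircCsnk1g3 and 132.0 in shCTR. The genes sit on chromosome 6 (HoxA, 52155590 to 52260880, minus strand), chromosome 11 (HoxB, 96194316 to 96368256, plus strand), chromosome 15 (HoxC, 102921103 to 103036852, plus strand) and chromosome 2 (HoxD, 74668310 to 74765142, plus strand) of GRCm38.

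All 4 clusters were expressed, with HoxC in front. HoxC held 44.9% of the summed Hox level in shcircCsnk1g3 and 45.3% in shCTR, HoxD 23.0% and 21.4%, HoxB 17.7% and 19.0%, and HoxA 14.4% and 14.2%. On this scale the order of the clusters was the same in both libraries. HoxC stayed first with every length measure tried, whereas the order of the other 3 depended on it.

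**Figure D1:**
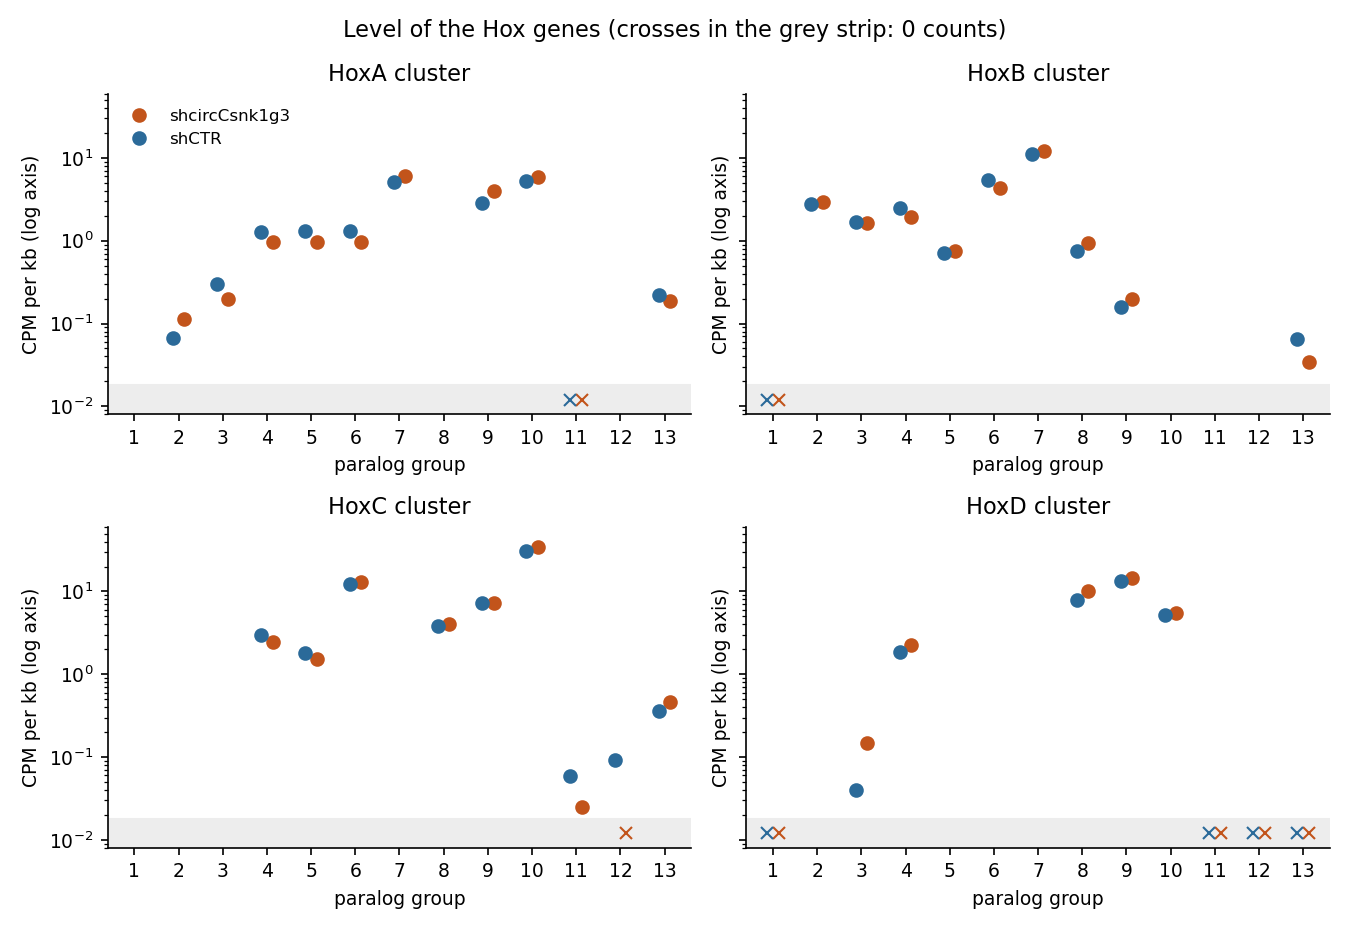
Level of 38 of the 39 Hox genes in CPM per kb of merged exons (log axis) against its paralog group, 1 panel per cluster, with shcircCsnk1g3 in orange and shCTR in blue. Crosses in the grey strip mark genes with 0 counts, and in HoxA, HoxC and HoxD the level drops between groups 10 and 11.

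A few genes carried most of the Hox RNA. Hoxc10, a group 10 gene known for limb and lumbar identity (ENSMUSG00000022484, chromosome 15, 102966796 to 102971893), had 2598 counts in shcircCsnk1g3 and 2495 in shCTR. Its level was 34.7 and 30.9 CPM per kb, 24.5% and 23.4% of all Hox RNA on this scale, and it lay above 90.6% and 89.0% of the genes with a count. Next came Hoxd9 (1227 and 1205 counts, 14.6 and 13.4 CPM per kb), Hoxc6 (1240 and 1262 counts, 13.1 and 12.4 CPM per kb), Hoxb7 (742 and 723 counts, 12.3 and 11.1 CPM per kb) and Hoxd8 (1091 and 920 counts, 10.1 and 7.94 CPM per kb). Hoxc10 was the top Hox gene with every length measure tried, whereas the order of the next genes, and which genes they were, depended on it. Without a length, Hoxb7 gave its place among the first 5 to Hoxa9 in shcircCsnk1g3 and to Hoxc9 in shCTR. These 5 genes held 59.9% of the summed Hox level in shcircCsnk1g3 and 57.4% in shCTR, and the first 10 held 80.3% and 78.8%.

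By paralog group, RNA was spread over groups 2 to 10, with most of it in groups 6 to 10. Group 10, with 3 genes, gave 46.0 CPM per kb in shcircCsnk1g3 and 41.4 in shCTR, or 32.5% and 31.4% of the Hox level. Group 9 followed with 18.4% and 17.9%, group 6 with 13.03% and 14.5%, group 7 with 12.9% and 12.3%, and group 8 with 10.7% and 9.50%. Groups 1 to 3, the most anterior genes, together gave 4.35% and 4.47%. Group 11 gave 0.0178% and 0.0444%, group 12 gave 0% and 0.0696%, and group 13 gave 0.485% in both.

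**Figure D2:**
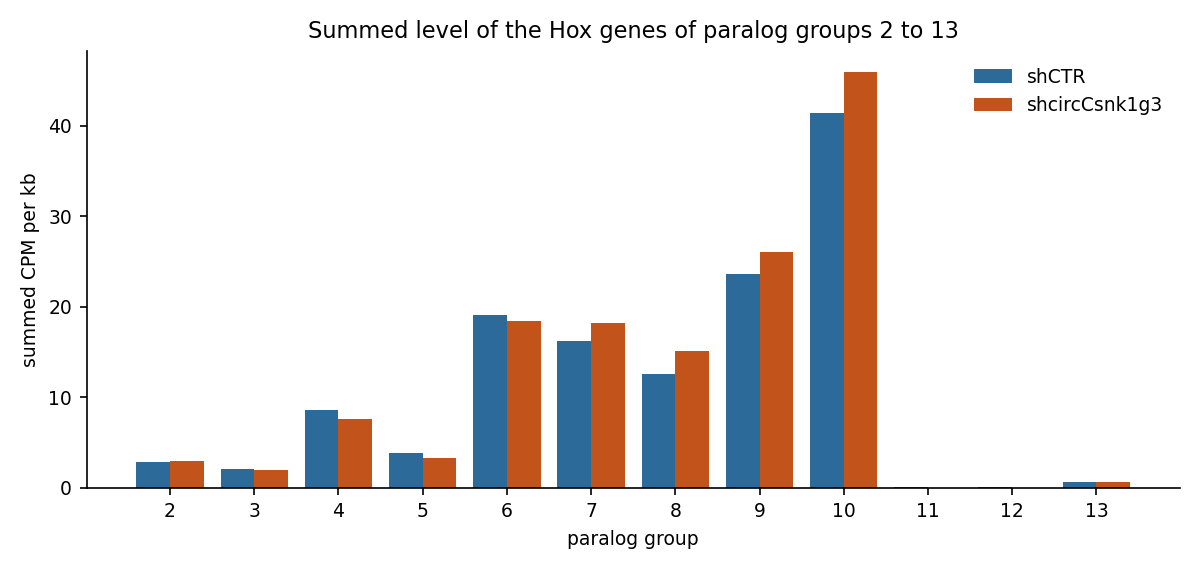
Summed level (CPM per kb) of the Hox genes of paralog groups 2 to 13, with shCTR in blue and shcircCsnk1g3 in orange. The tallest pair of bars is group 10, at 41.4 and 46.0 CPM per kb, and groups 11 and 12 are near 0.

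The break after group 10 was steep in each cluster that has an 11th gene. Hoxa10 had 752 counts in shcircCsnk1g3 and 735 in shCTR, and its neighbour Hoxa11, known for the forearm and lower leg, had 0 in both. Set against the floor of 3 counts per library, the level of Hoxa10 was at least 175-fold (shcircCsnk1g3) and at least 171-fold (shCTR) higher than that of Hoxa11. Hoxd10 had 387 and 394 counts and Hoxd11, the other gene of the same group with that role, had 0 in both, so Hoxd10 was at least 299-fold and at least 305-fold higher. Hoxc11 had 2 and 5 counts. The Hoxc10 level was 1375-fold that of Hoxc11 in shcircCsnk1g3 (interval 380 to 11362) and 528-fold in shCTR (interval 226 to 1628). These ratios describe levels within a library, so that they do not depend on the scaling between libraries.

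Beyond the break, group 13 was not silent throughout. Hoxc13, known for nail and hair, had 45 counts in shcircCsnk1g3 and 37 in shCTR, a level of 0.466 and 0.356 CPM per kb. Hoxa13, a gene of the hand, foot and genital region, had 18 and 23 counts (0.186 and 0.220 CPM per kb). Hoxb13 had 3 and 6 counts, Hoxc12 had 0 and 4, and Hoxd12 and Hoxd13, which pattern the digits, had 0 in both. The group 13 genes with counts were thus those of HoxA, HoxB and HoxC, at levels far below those of their cluster neighbours in groups 9 and 10, except that Hoxb9 (20 and 17 counts) was itself low.

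At the anterior end the clusters differed. Hoxb1, a hindbrain gene, and Hoxd1 had 0 counts in both libraries. Hoxb2 had 397 counts in shcircCsnk1g3 and 410 in shCTR (2.90 and 2.78 CPM per kb), whereas Hoxa2, the selector of the second branchial arch, had 8 and 5. Hoxb3 had 275 and 305 counts (1.65 and 1.70 CPM per kb), against 47 and 76 for Hoxa3 and 24 and 7 for Hoxd3. In groups 2 and 3 the HoxB gene was therefore the highest in both libraries. Groups 4 to 8 hold 15 genes, and all 15 passed the filter, with levels from 0.705 CPM per kb (Hoxb5, shCTR) to 13.1 (Hoxc6, shcircCsnk1g3).

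Between the libraries, few Hox genes differed by much. Only Hoxd3 of the 29 genes (3.4%) was at least 2-fold higher in shcircCsnk1g3, where 2.13% of 12941 genes tested were. None was at least 2-fold lower, where 2.55% of all genes were. The interval lay above 0 for 7 of the 29 (24.1%, against 26.9% of all genes) and below 0 for 4 (13.8%, against 28.2%). The median log2 ratio of shcircCsnk1g3 over shCTR was 0.08 over the 29 genes and 0.00 over all genes. Intervals are wider at low counts, and the median of the summed counts was 572 over the 29 genes and 2354 over all genes, so the shares of intervals off 0 are not measured at equal depth.

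**Figure D3:**
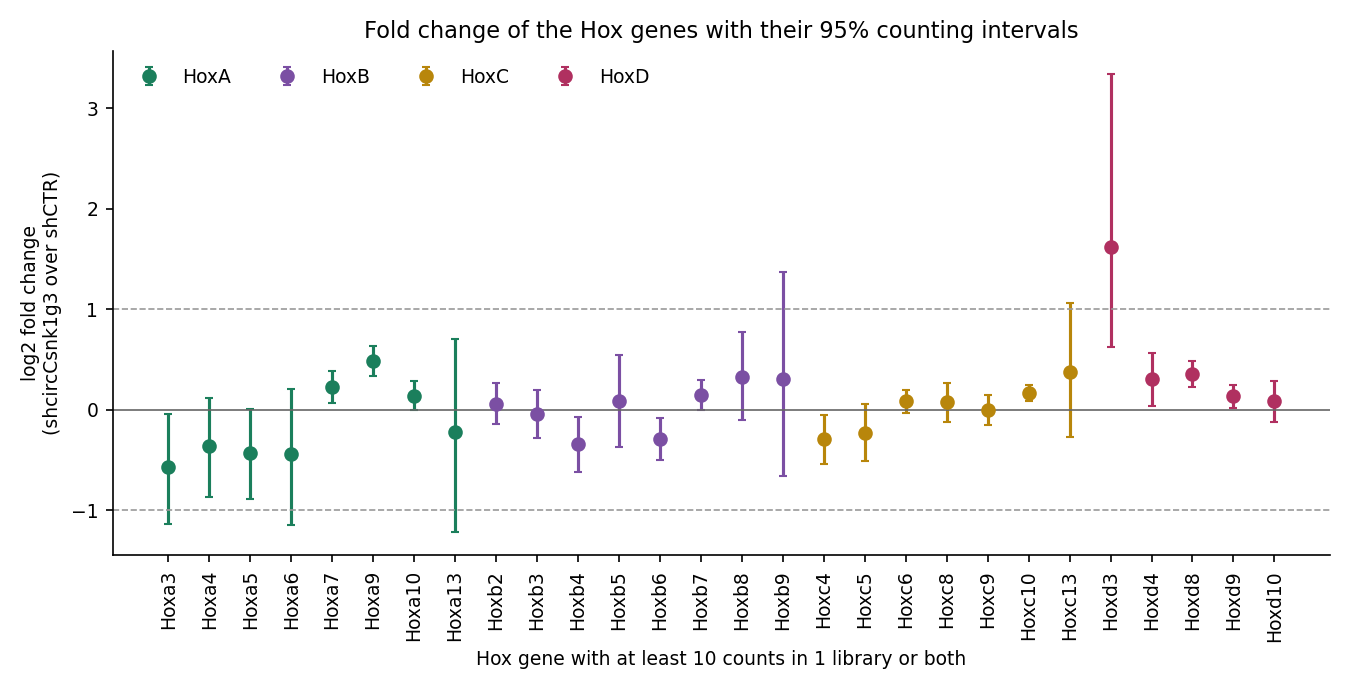
Log2 fold change (shcircCsnk1g3 over shCTR, prior count 2) of 28 of the 29 Hox genes that reached 10 counts in either library, in cluster and paralog order, colored by cluster, with bars for the 95% counting interval and dashed lines at 2-fold. Hoxd3 alone lies above the upper line, at 1.62, and none lies below the lower line.

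Hoxd3, a group 3 gene (ENSMUSG00000079277, chromosome 2, 74711927 to 74748442), had 24 counts in shcircCsnk1g3 and 7 in shCTR. Its log2 ratio was 1.62 (interval 0.63 to 3.34), at a level of 0.146 and 0.0395 CPM per kb, the lowest of the 29 genes. Its annotation limits the value, since 53.1% of its exon bases are shared on the same strand with Gm28230, a protein-coding gene model within HoxD, and 9.26% with Hoxd4. Gm28230 had 233 and 174 counts, and summing it with Hoxd3 gave 257 and 181 counts and a log2 ratio of 0.61 (interval 0.33 to 0.90). With Hoxd4 added, the sums were 518 and 409 and the ratio 0.45 (interval 0.26 to 0.64). Haglr, a noncoding RNA that runs on the opposite strand from beside Hoxd1 to the end of Hoxd3, had 20 and 4 counts, a log2 ratio of 1.96 (interval 0.85 to 4.44). Whether counting used strand is not stated, so reads of overlapping genes on opposite strands may not have been separated.

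HoxD was the cluster in which every gene tested had a positive log2 ratio. Hoxd8 had 1091 counts in shcircCsnk1g3 and 920 in shCTR, a log2 ratio of 0.35 (interval 0.23 to 0.48). Hoxd4 had 261 and 228 counts (0.30, interval 0.04 to 0.57) and Hoxd9 had 1227 and 1205 (0.13, interval 0.02 to 0.25). The annotation limits the value of Hoxd4 too, since 39.1% of its exon bases are shared on the same strand with Gm28230 and 13.2% with Hoxd3. Hoxd10, with 387 and 394 counts, had a ratio of 0.08 whose interval (-0.12 to 0.29) held 0. Hence 4 of the 5 intervals lay above 0, as did 26.9% of those of all genes, and the summed counts of the cluster, 2990 and 2754, gave a ratio of 0.23 (interval 0.15 to 0.30). The genes are neighbours and share their region, so they are not 5 independent observations.

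Within groups 3 to 10, HoxA was divided along its length, and the HoxB sums of these groups, given below, were divided in the same direction. Toward its anterior side, Hoxa3, which patterns the pharyngeal organs, had 47 counts in shcircCsnk1g3 and 76 in shCTR (-0.57, interval -1.14 to -0.04). Hoxa4 had 61 and 85 counts (-0.36), Hoxa5, known for lung and shoulder development, had 72 and 105 (-0.43), and Hoxa6 had 33 and 49 (-0.44), all with intervals that held 0. Hoxa3 is thus the only one of these 4 genes whose counting interval excluded 0, although all 4 were lower in shcircCsnk1g3. Toward the posterior side, Hoxa9, known for its part in leukemia and in the limb, had 863 and 666 counts (0.48, interval 0.33 to 0.63), the largest ratio among the Hox genes with over 100 counts in both libraries. Hoxa7 had 675 and 623 counts (0.22, interval 0.06 to 0.38) and Hoxa10 752 and 735 (0.14, interval -0.01 to 0.29). At the posterior end, Hoxa13 (-0.22, interval -1.22 to 0.71) had a wide interval around 0. The cluster's summed counts, 2631 and 2464, gave 0.20 (interval 0.12 to 0.28).

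The summed counts of HoxB and HoxC differed less than those of HoxA and HoxD, although single genes did differ. Hoxb4, a blood stem cell factor, had 195 counts in shcircCsnk1g3 and 267 in shCTR (-0.34, interval -0.62 to -0.07), and Hoxb6 had 336 and 444 (-0.29, interval -0.50 to -0.09). The other 6 HoxB genes had intervals that held 0, with ratios from -0.04 (Hoxb3) to 0.32 (Hoxb8, 98 and 84 counts). Among them were Hoxb2 (0.06), Hoxb5 (82 and 83 counts, 0.09), Hoxb7 (0.14) and Hoxb9 (0.31). The HoxB sums of 2148 and 2339 counts gave -0.02 (interval -0.10 to 0.07). That sum joins a ratio of -0.20 in groups 3 to 6 and of 0.17 in groups 7 to 10.

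In HoxC, Hoxc10 was the gene whose interval lay above 0 (0.17, interval 0.09 to 0.25) and Hoxc4 the gene whose interval lay below it, with 246 counts in shcircCsnk1g3 and 326 in shCTR (-0.30, interval -0.54 to -0.06). Hoxc5 had 186 and 235 counts (-0.23, interval -0.52 to 0.05). Hoxc6 (0.08), Hoxc8 (449 and 460 counts, 0.07), Hoxc9 (698 and 754 counts, 7.32 and 7.34 CPM per kb, 0.00) and Hoxc13 (0.37, interval -0.27 to 1.06) also had intervals that held 0. The sums of 5464 and 5578 counts gave 0.08 (interval 0.02 to 0.13). Where Hoxc4, Hoxc5 and Hoxc6 were taken as 1 unit, their 1672 and 1823 counts gave -0.02 (interval -0.11 to 0.08). The exons of these genes share no bases with each other in the annotation used. Hoxc5 does share 166 exon bases on the same strand with Hoxc10. They make up 5.4% of the Hoxc5 exons and 8.7% of the Hoxc10 exons. Hoxc5 and Hoxc10 were not summed, and the part of their counts from the shared bases was not tested.

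By paralog group, the summed counts of groups 7 to 10 were higher in shcircCsnk1g3, with log2 ratios of 0.18 (group 7, interval 0.07 to 0.29), 0.27 (group 8, interval 0.17 to 0.37), 0.20 (group 9, interval 0.12 to 0.27) and 0.15 (group 10, interval 0.09 to 0.22). Groups 4 and 5 had ratios of -0.14 (interval -0.28 to 0.00) and -0.21 (interval -0.42 to 0.00), both just reaching 0. A split at groups 3 to 6 and 7 to 10, chosen after these values were seen and therefore only a description, put 9 of 13 genes below 0 in the first set and 11 of 12 above 0 in the second. Over all 12941 genes, 6420 were below 0 and 6521 above. The split leaves out the groups outside 3 to 10, group 2 with a ratio of 0.07 (interval -0.13 to 0.27) among them, and within the first set group 6 was at -0.02 (interval -0.12 to 0.08) and group 3 at -0.06 (interval -0.27 to 0.16). All 4 Hox genes with an interval below 0 were in the first set, which makes 4 of 13, against 28.2% of all genes. The first set also held 2 with an interval above 0 (26.9% of all genes). In the second set 5 of 12 intervals lay above 0 and none below. The HoxA sums were 213 and 315 counts in groups 3 to 6 (-0.45, interval -0.71 to -0.20) against 2290 and 2024 in groups 7 to 10 (0.29, interval 0.20 to 0.37). For HoxB they were 888 and 1099 (-0.20, interval -0.33 to -0.07) against 860 and 824 (0.17, interval 0.03 to 0.31). For HoxC they were 1672 and 1823 (-0.02, interval -0.11 to 0.08) against 3745 and 3709 (0.12, interval 0.06 to 0.19). HoxD did not follow this split, since its groups 3 to 6 had 285 and 235 counts (0.38, interval 0.13 to 0.64).

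Rows of the table within the clusters that are not Hox genes were few. Of 9 such rows, 3 reached 10 counts, Gm28230, Haglr and Gm28308. Gm28308, a model that shares exons with Hoxa3 and Hoxa2, had 4 counts in shcircCsnk1g3 and 16 in shCTR, and with it Hoxa3 had 51 and 92 (-0.72, interval -1.27 to -0.23). Hotair, a noncoding RNA of the HoxC cluster, had 4 counts in both libraries, and Hottip, of the HoxA cluster, had 0. Most other noncoding RNAs of the clusters were not analysed here, with only 4 of 19 listed found in the table.

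Genes beside the clusters did not share 1 direction. Next to HoxC, Smug1, a DNA repair enzyme that lies 116 kb beyond the anterior end, had 513 counts in shcircCsnk1g3 and 1008 in shCTR (-0.86, interval -1.02 to -0.71). Calcoco1, on the other side of HoxC, had 2686 and 2091 (0.47, interval 0.39 to 0.55). Next to HoxD, Lnp (1394 and 1606 counts, -0.10) and Mtx2 (2455 and 2708 counts, -0.03) had intervals that held 0. Beside HoxA, Hibadh (1654 and 1850 counts) had a ratio of -0.05. Cbx5, also near HoxC, had 18551 and 19430 counts and a ratio of 0.04 (interval 0.01 to 0.07). Evx1 and Evx2, homeobox genes at the posterior ends of HoxA and HoxD, had 0 counts in both libraries. Of the 13 flank genes found of 15 listed, 8 were tested and their median ratio was -0.02.

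The partners of Hox proteins were all present. All 9 TALE genes passed the filter, none past 2-fold, with 3 intervals above 0 (26.9% of all genes), 1 below (28.2% of all genes) and a median of 0.14. Pbx2 (1389 and 1341 counts, 9.73 and 8.72 CPM per kb) and Pknox1 (1950 and 1754 counts, 7.17 and 5.99 CPM per kb) were among those with the highest levels. Their ratios were 0.16 (interval 0.05 to 0.27) and 0.26 (interval 0.17 to 0.35). Meis3 had 273 and 211 counts (0.48, interval 0.21 to 0.75), whereas Pbx3 (748 and 841 counts, -0.06) and Meis2 (843 and 923 counts, -0.02) had intervals that held 0.

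Of the genes that set limb type, Pitx1, which directs hindlimb identity, had 961 counts in shcircCsnk1g3 and 1270 in shCTR (9.23 and 11.3 CPM per kb). Its log2 ratio was -0.29 (interval -0.42 to -0.17). Tbx4, the other hindlimb gene, and Tbx5, the forelimb gene, had 0 in both libraries, and Isl1, which acts before Tbx4, had 0 and 1. Thus 1 of the 4 limb field genes was detected above the floor. At these depths a count of 0 allows up to the floor of 3 counts given above.

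Of 32 limb patterning genes, 18 passed the filter, none past 2-fold, with 3 intervals above 0 (26.9% of all genes), 7 below (28.2% of all genes) and a median of -0.12. Grem1, a secreted BMP antagonist of the limb bud, had 6715 counts in shcircCsnk1g3 and 8532 in shCTR (41.3 and 48.7 CPM per kb, -0.24). Tbx15 had 5828 and 5300 (39.7 and 33.5 CPM per kb, 0.24), Prrx1, a marker of limb mesenchyme, had 11414 and 13181 (26.3 and 28.2 CPM per kb, -0.10), and Prrx2 had 1887 and 2527 (24.5 and 30.5 CPM per kb, -0.31). The levels of Grem1 and Tbx15 were above that of Hoxc10 in both libraries. Tbx3 had 3240 and 4760 counts (-0.45, interval -0.51 to -0.38), and Twist1 had 1787 and 1950 (-0.02). Another 12 of the 32, Shh and Lmx1b among them, had 0 in both libraries.

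**Figure D4:**
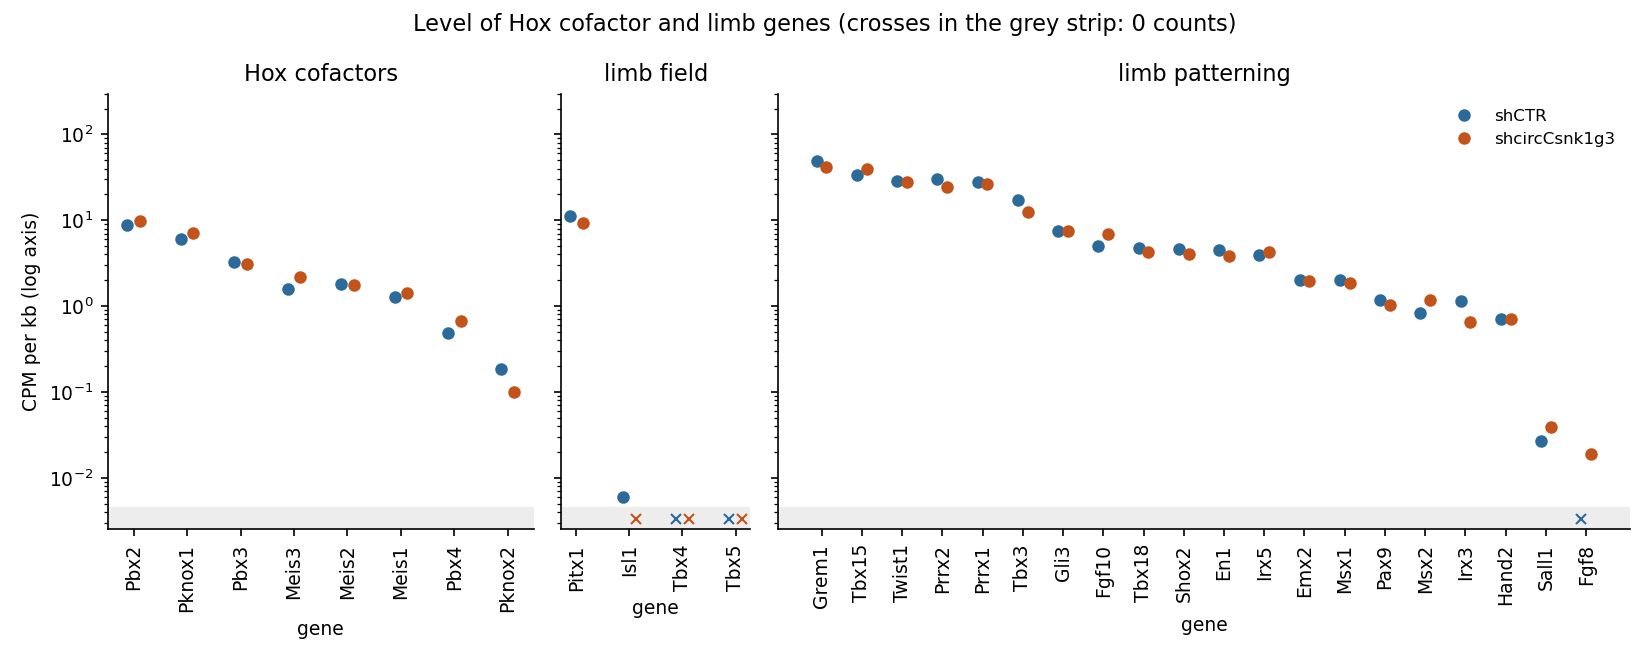
Level (CPM per kb, log axis) of 8 of the 9 TALE cofactors, the 4 limb field genes and the limb patterning genes with a count, with shCTR in blue and shcircCsnk1g3 in orange. Crosses in the grey strip mark 0 counts, and of the limb field genes only Pitx1 stands above the floor, at 9.23 and 11.3 CPM per kb.

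The regulators that keep Hox genes silent or active were expressed throughout. All 30 Polycomb genes passed the filter, none past 2-fold, with 15 intervals above 0, 6 below and a median of 0.07. Over all genes, 26.9% of intervals lay above 0 and 28.2% below. Most of these Polycomb genes, and all MLL and trithorax genes named next, had more summed counts than the median of 2354 over all genes. Intervals are narrower at high counts, so these shares are not measured at equal depth. Rbbp7 (118 and 111 CPM per kb, 0.08), Rbbp4 (42.9 and 40.8, 0.07), Phc2 (35.8 and 37.5, -0.07), Suz12, a core subunit of the complex that methylates histone H3 (35.7 and 34.4, 0.05), and Cbx6 (28.2 and 26.1, 0.11) were among those with the highest levels. Yaf2, a subunit of the PRC1 type of complex, had 1448 counts in shcircCsnk1g3 and 2256 in shCTR (19.7 and 28.5 CPM per kb, -0.53, interval -0.63 to -0.44). It was named for its level, and the ratios of the 30 genes ran from this value to 0.68. All 17 MLL and trithorax genes also passed, none past 2-fold, with 8 intervals above 0 (26.9% of all genes), 3 below (28.2% of all genes) and a median of 0.06. Among them Dpy30 (1816 and 2115 counts, -0.11), Psip1 (6554 and 7133, -0.01), Mllt1 (4650 and 4818, 0.06), Kat7 (5448 and 5415, 0.12), Wdr5 (3305 and 3237, 0.14) and Aff4 (10659 and 11034, 0.06) were the most abundant by level.

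Retinoic acid, a vitamin A derivative, is a known inducer of anterior Hox genes. Of 18 genes of its pathway 12 passed the filter, none past 2-fold, with 3 intervals above 0 (26.9% of all genes), 4 below (28.2% of all genes) and a median of -0.06. Crabp1, which binds retinoic acid in the cytoplasm, had 38075 counts in shcircCsnk1g3 and 41310 in shCTR, 1211 and 1219 CPM per kb. Its level was thus many times that of any Hox gene, with a ratio of -0.01 (interval -0.03 to 0.01). The receptors Rarg (5078 and 5745 counts, -0.07), Rxrb (3599 and 3253, 0.25) and Rxra (2569 and 2174, 0.35) were present, as was Rdh10, which starts retinoic acid synthesis (2981 and 2857, 0.17).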

How the data were processed

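Poly(A) RNA of the 2 cell populations was sequenced from stranded libraries. The authors aligned reads with STAR 2.6.1 and made estimated counts per gene with RSEM 1.2.28, deposited rounded to whole numbers for 25509 genes. RSEM divides reads that match several genes, and the GENCODE release and any strand setting are not given in the sources used here. Their other table, CPM scaled by TMM with edgeR 3.30, was deposited for 11624 genes and holds 26 Hox genes, without Hoxa6, Hoxa13 and Hoxd3 of those tested here. It was used as an alternative only. The 92 spike-in rows summed to 0 and were left out.

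Counts were scaled by TMM in edgeR 4.0.16 under R 4.3.3, using the genes that reached 10 counts in either library. The log2 ratio is that of the scaled CPM with a prior count of 2, and intervals are exact Clopper-Pearson 95% intervals in scipy 1.17.1 (python 3.11.15, numpy 2.4.6, pandas 2.3.3, matplotlib 3.10.9), which cover counting error only. Level is CPM per kb of merged exons of GENCODE M21 on GRCm38, which held 25251 of the gene identifiers and all 39 Hox genes. Totals were 38792143 and 42709996 counts. Simulated counts with known changes were used to test these steps.

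The members and the lists (TALE cofactors, limb field, limb patterning, head positional, ParaHox with Cdx and Evx, Polycomb, MLL and trithorax, retinoic acid, cluster noncoding RNAs, cluster flanks, and markers of mesenchyme, leukocytes, endothelium, lung epithelium, lung mesenchyme and red cells) were chosen with earlier results of these data known. Named genes are every Hox gene, of each list up to 6 tested genes with the highest level plus those past 2-fold with at least 50 summed counts, the limb field genes, and rows within the clusters with at least 10 counts. Pdgfra, Thy1, Ptprc, Sftpc, Nkx2-1, Hbb-bs, Hbb-bt, Hotair, Hottip, Shh, Lmx1b, Evx1, Evx2, Tbx2, Tcf21, Wnt2, Lhx8 and Csnk1g3 were named outside that rule, after their values were seen. Results for some genes under the rule are not reported here and are left out of the figures. Alternatives were size factors of DESeq2 1.42.0, total counts, prior counts of 0.5 and 10, no filter or a minimum of 50 or 200 summed counts, the deposited CPM, 1.5-fold and 4-fold thresholds, other gene lengths, and, added after seeing the data, coding length, sums of rows with shared exons and of the neighbours Hoxc4, Hoxc5 and Hoxc6, and the list without Hoxd3.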

Additional observations from a re-analysis of the deposited data

How the results depend on the processing

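Of 222 values of single genes under the alternatives, 219 lay within the gene's own counting interval, and no gene whose interval excluded 0 changed sign. Values near 0 did, since with total counts Hoxc9 was 0.03, the HoxB sum 0.02 and the median of the flank genes 0.01, and Hoxc6 summed with Hoxc4 and Hoxc5 was -0.02. With total counts the intervals of Hoxa10 (0.02 to 0.32) and Hoxb7 (0.03 to 0.33) also lay above 0, so that 9 Hox genes rather than 7 did. The other 3 were Hoxd3 summed with rows that share its exons and Hoxc4 summed with its neighbours Hoxc5 and Hoxc6. The count of Hox genes at least 2-fold higher rests on Hoxd3 and was 0 with minimums of 50 or 200 summed counts, in the deposited CPM table, at 4-fold and without Hoxd3. The count at least 2-fold lower was 1 with no filter, from Hoxc12 at 0 and 4 counts. Over all genes, the numbers higher and lower were 275 and 330 as reported, 150 and 171 with a prior count of 10, 732 and 623 with no filter (16101 genes), 132 and 157 with 50 summed counts, 60 and 79 with 200, 107 and 168 in the deposited table, 698 and 817 at 1.5-fold, and 49 and 52 at 4-fold.

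Of 32 cluster ratios 31 kept within their interval, and HoxA was 0.29 with a minimum of 200 summed counts, where fewer of its genes are counted. The median of all genes moved by at most 0.03. Of 116 list medians 111 moved by no more than the median half-width of the intervals of their genes. The others were -0.43 (limb field) and -0.16 (mesenchyme) with no filter, and, for red cell markers, 0.22 as reported, -0.0906 with 50 or 200 summed counts and -0.0887 in the deposited table.

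Levels depended on the length used, with 78 of 116 single gene levels outside their counting interval with the longest transcript or coding length, against all 116 within it under other scalings. In the order shcircCsnk1g3 and shCTR, the share of the Hox level in HoxA was 17.1% and 16.5% by longest transcript, 19.9% and 18.8% without length, and 19.5% and 18.2% by coding length. HoxB gave 16.2% and 17.8% without length and 17.8% and 19.5% by coding length, so that HoxA passed HoxB in both libraries without length, and by coding length only in shcircCsnk1g3, while HoxB passed HoxD in shCTR. HoxC gave 41.3% and 42.5% without length and 41.8% and 43.2% by coding length. HoxD gave 20.7% and 19.3% by longest transcript and 20.8% and 19.1% by coding length. Groups 9 to 13 gave 47.9% and 46.3%, 49.97% and 48.3%, and 43.9% and 42.1%, and Hoxc10 gave 21.4% and 20.6%, 19.6% and 19.0%, and 16.4% and 15.8%, by longest transcript, no length and coding length. The number of Hox genes above the detection limit in both libraries was 30 at the floor of 3 counts and 28 at 10 counts.

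No paired analysis was possible because each condition has 1 library, and for the same reason no library could be left out. Depth limits the genes with few counts, such as Hoxd3, Hoxb9 and Hoxa13, whose intervals span over 1.5 on the log2 scale.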

Other observations

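Genes that pattern the forebrain and jaw were also present beside the Hox genes. Of 12 head genes 8 passed the filter, with 1 interval above 0 (26.9% of all genes), 3 below (28.2% of all genes) and a median log2 ratio of -0.09. In the order shcircCsnk1g3 and shCTR, Lhx6 (325 and 324 counts, ratio 0.11), Dlx2 (171 and 142, 0.37), Gsc (33 and 33, 0.10), Lhx2 (98 and 108, -0.03) and Otx1 (99 and 137, -0.36) were among those tested. The 1 head gene of 8 at least 2-fold lower (2.55% of all genes), Lhx8, had 7 and 19 counts and was named after its value was seen. Of the 8 ParaHox, Cdx and Evx genes, relatives of the Hox genes, 6 had 0 counts in both libraries and Gsx1, with 12 and 7 counts, was the 1 gene tested.

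The cells had been taken from lung foci, and 3 of 8 markers of lung mesenchyme passed the filter. Foxf1 (1577 and 1442 counts, 0.24), Fgf10 (1261 and 970, 0.49), which the limb uses too, and Npnt (1157 and 1228, 0.02) were present, whereas Tcf21, Wnt2, Tbx2, Tbx4 and Tbx5 had 0 in both libraries. Their part in the Hox pattern was not tested.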
